A study of Mus musculus with 6 samples.

Results

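Molecular chaperone genes were examined in nuclear RNA from mouse neural precursor cells, in lines labelled Fmr1 WT and lines labelled Fmr1 KO. The members were chosen by gene symbol: all rows named as heat shock proteins of the HSP90, HSP70, HSP110, HSP60, HSP10 and small HSP families, all rows named Dnaja, Dnajb or Dnajc with a number, the subunits of the chaperonin CCT including Tcp1, and the heat shock transcription factor gene Hsf1. This rule found 83 of the 23337 gene rows, and 75 of the 83 passed the filter on low counts that left 13925 genes to be tested. Of the 83, 56 encode proteins placed in the cytosol or nucleus, 13 in the endoplasmic reticulum (ER), 9 in the mitochondrion and 5 elsewhere or in no single place.

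Neural precursor cells were grown from dorsal forebrain tissue of mouse embryos (E13.5), and 6 libraries were made. Of these, 3 came from Fmr1 WT lines (WT 3, WT 8 and WT 19) and 3 from Fmr1 KO lines (KO 3, KO 13 and KO 16), and the series text calls the lines independent. All 6 were at passage 6 to 7, grew on Matrigel with B27, N2, heparin at 5 ug/ml and EGF and basic FGF at 20 ng/ml each, and were taken at about 80% confluency. The labels give neither the KO allele nor the strain. Fmr1 encodes an RNA-binding protein whose loss causes fragile X syndrome. Nuclei were separated with a NE-PER kit, so every level below is one of RNA in the nuclear fraction. Cytoplasmic RNA carried over into that fraction would be counted too, and levels in the cytoplasm itself were not analysed here. In bulk RNA, fewer cells of a type and less RNA per cell cannot be told apart.

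Chaperones bind unfolded or partly folded proteins and help them reach their native shape. HSP70 proteins take up short exposed segments in cycles of ATP hydrolysis that J-domain proteins start and HSP110 proteins end by exchanging the nucleotide, HSP90 proteins act on later folding states of selected clients, and chaperonins (CCT in the cytosol, HSP60 with HSP10 in the mitochondrion) enclose a protein in a barrel. Each compartment has its own set: in the cytosol many are induced by the heat shock factor Hsf1, while in the ER they are induced by the unfolded protein response.

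Total counts ran from 18702738 to 26789522 per library. Fmr1, the targeted gene, stood at 223, 270 and 274 CPM (counts scaled to library size by TMM, the trimmed mean of M values) in the WT lines, at 188 and 153 CPM in KO 13 and KO 16, and at 371 CPM in the library labelled KO 3, which goes against that label. WT 19 and KO 3 also stood apart from the other libraries of their groups. The chi-square distance per degree of freedom was 9.08 between WT 3 and WT 8 against 50.8 and 52.0 from WT 19 to them, and 14.0 between KO 13 and KO 16 against 61.0 and 76.8 from KO 3 to them. Xist, made from the inactive X chromosome of female cells, stood at 15465, 18433 and 20508 CPM in WT 3, WT 8 and KO 3 and at 81.8, 3.34 and 1.67 CPM in WT 19, KO 13 and KO 16, so the groups were not balanced for sex. With a covariate from the Y-linked genes, 26 members were called lower and 11 higher, where 24 and 7 were called without it. The covariate also raised the counts called lower and higher over all genes tested, so the rise was not particular to the members. The ribosomal RNA precursor row Rn45s stood at 18739 CPM in WT 19 and at 1078 to 2568 CPM in the other libraries. Without KO 3, the change in Fmr1 was -0.58 (log2, adjusted p = 0.00152, edgeR) in place of -0.10 (adjusted p = 0.795). All 12 neural precursor markers were detected, and 2 of them, Vim and Slc1a3, were lower and 1, Nr2e1, higher in the KO lines. Their summed level was 8031 to 9034 CPM in the WT lines and 6009 to 7397 CPM in the KO lines, which did not overlap. Of 7 astrocyte markers tested, 3 were lower (summed level 290 to 558 CPM in WT and 197 to 284 CPM in KO), and of 6 oligodendrocyte lineage markers 3 were higher (351 to 404 CPM and 414 to 603 CPM). Those lower were Agt (log2 -5.28), Gfap (-3.10) and Aldh1l1 (-1.39). Those higher were Pdgfra (log2 4.03), Sox10 (2.75) and Gpr17 (5.30, with 0 to 2 counts in the WT lines). Most of the oligodendrocyte sum was Olig1, which was not called. Of 5 neuron markers, 2 were higher, Dcx (log2 4.06) and Snap25 (2.60), with sums of 14.3 to 21.3 CPM and 31.6 to 55.3 CPM. Of 5 endothelial and mesenchymal markers 3 were higher, with sums that overlapped (9.47 to 12.6 CPM and 9.68 to 26.1 CPM). Over all genes tested, 42.3% were called. The microglia and macrophage list summed to 0.549 to 1.34 CPM, with 2 of its 8 genes at 0 counts in every library. The part of these marker levels in the chaperone results was not tested.

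Chaperone genes made up 0.873% to 1.17% of the counts in each library. Compared per kilobase of exon in the WT lines, the level of Hsp90ab1, the constitutive cytosolic HSP90, was the highest of the tested members, at 499 ± 59.99 CPM per kb (SD, n = 3). It was followed by Hsp90b1, the ER form of HSP90, at 287 ± 16.7 CPM per kb, and by Hspd1, the mitochondrial HSP60, at 169 ± 23.2. The next were Hspa8, the constitutive cytosolic HSP70, at 159.6 ± 21.5 and Hspa5, the ER HSP70 known as BiP, at 139 ± 16.2, followed by Hsp90aa1, the stress-inducible cytosolic HSP90, at 131 ± 25.7 CPM per kb. The levels of Hspd1, Hspa8, Hspa5 and Hsp90aa1 lay within each other's spread over the WT lines. In the KO lines the order changed below Hsp90ab1, which stood at 594 ± 131 CPM per kb. Hspa8 stood at 179 ± 35.6 CPM per kb, the CCT subunit gene Cct2 came next at 151 ± 15.3, then Hsp90b1 at 145 ± 6.09. Hspa5 was at rank 9 with 82.2 ± 4.77 and Hsp90aa1 at rank 11 with 67.6 ± 6.13 CPM per kb. Hspa8, Cct2 and Hsp90b1 lay within the spread of one another there.

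Of the 75 tested members, 24 fell in the KO lines, 7 rose and 44 did not pass the test (edgeR quasi-likelihood, adjusted p under 0.05). The 24 are 32.0% of the members, where 20.4% of all genes tested were called lower. The 7 are 9.33%, where 21.8% of all genes were called higher. With both directions together, 41.3% of the members were called against 42.3% of all genes. The median log2 fold change was -0.06 over the members and 0.01 over all genes tested. In 26 of the 75 tested members all KO values lay below all WT values, and in 12 of the 75 all lay above. Of all 13925 genes tested, 3574 (25.7%) lay below and 3986 (28.6%) above in this way. Without KO 13, 14 members were called lower and without WT 8, 15. The count called higher was 2 without WT 3, 3 without WT 8, WT 19 or KO 16, 4 without KO 13 and 11 without KO 3. Counts over all genes also moved when a line was left out, from 2120 to 3944 lower and from 1994 to 3666 higher.

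In the ER, 7 of 13 members fell (53.8%), 1 rose and 5 did not pass, with a median of -0.41. In the mitochondrion, 4 of 9 fell (44.4%), 1 rose and 4 did not pass, with a median of -0.11. In the cytosol and nucleus, 11 of 49 tested members fell (22.4%), 5 rose (10.2%) and 33 did not pass, with a median of -0.03. Over all genes tested, 20.4% were called lower and 21.8% higher. Of the 4 tested members placed elsewhere, 2 fell. Without the J-domain proteins, all 3 ER members fell, as did 2 of the 3 mitochondrial members and 8 of 27 cytosolic members, of which 2 rose. When a line was left out, the ER count called lower ran from 5 to 8. The mitochondrial count was 2 without WT 8 or KO 13, and the cytosolic count was 7 without WT 3 and 6 without WT 8 or KO 13. The cytosolic count called higher was 1 without WT 3, 2 without WT 19, 3 without WT 8 or KO 16 and 8 without KO 3. The single ER call higher was lost without WT 3, WT 8, KO 13 or KO 16. The single mitochondrial call higher was lost without any line other than KO 3.

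**Figure D1:**
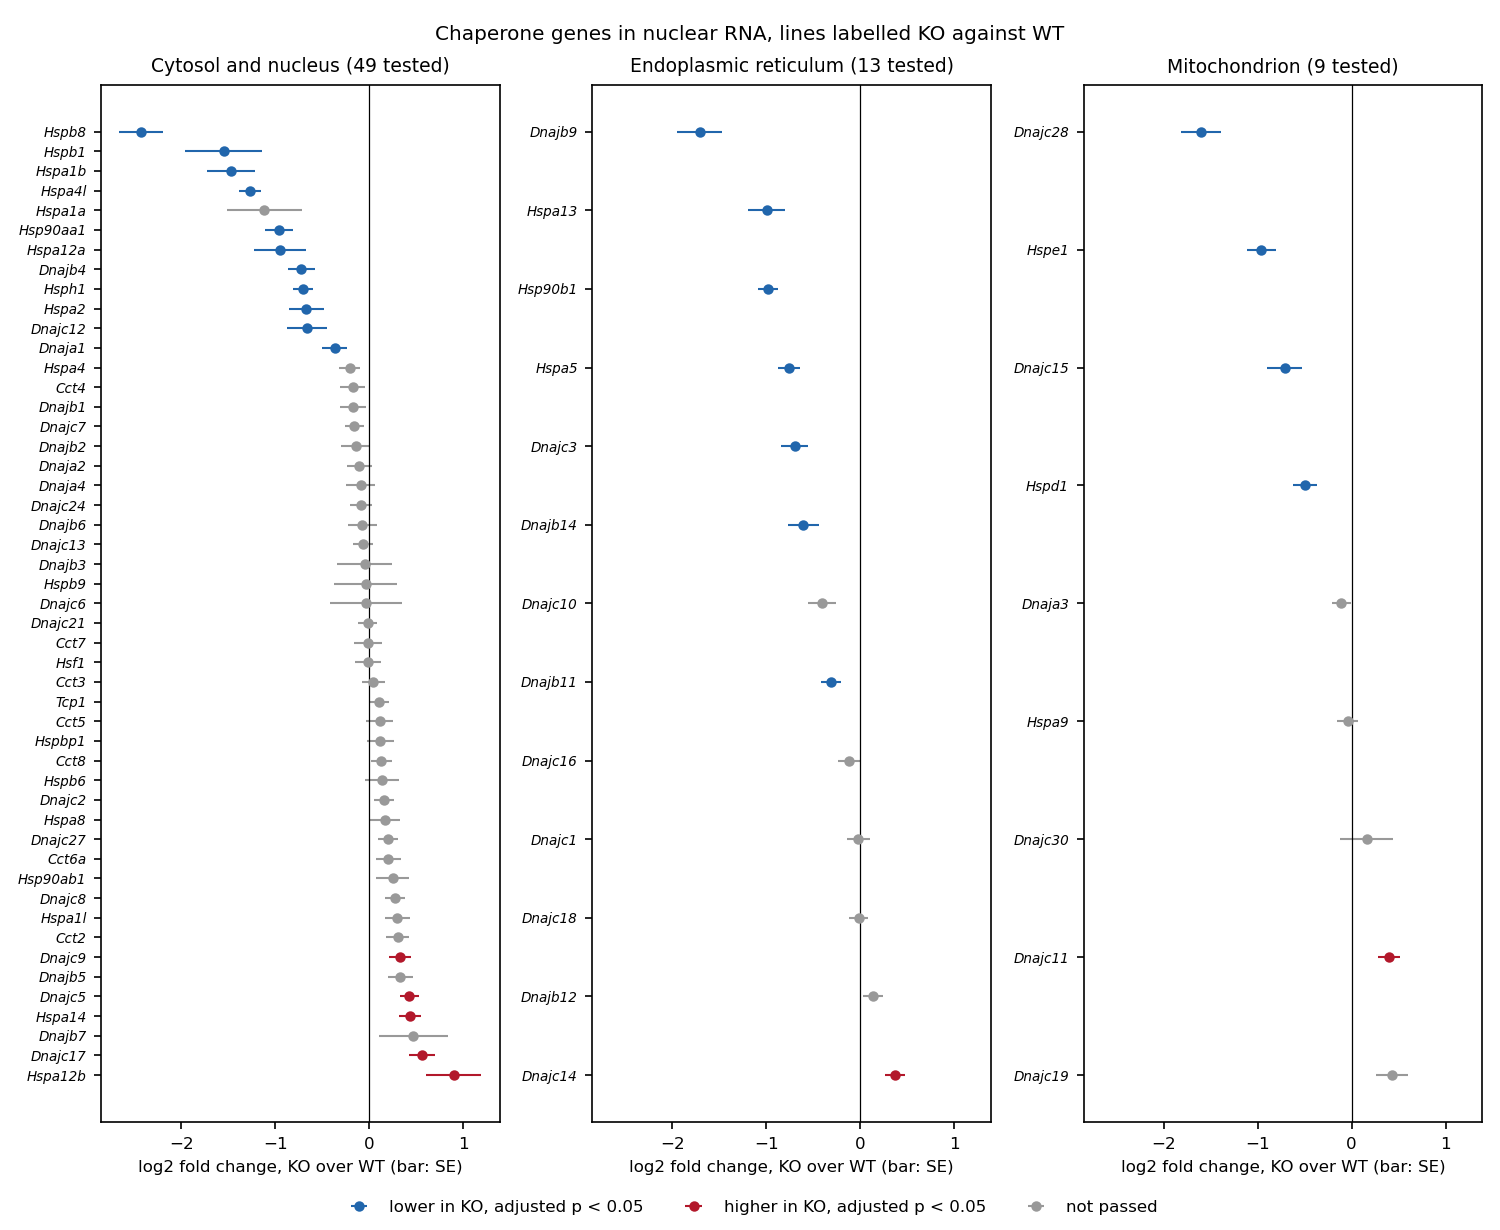
Log2 fold change (x axis, lines labelled KO over WT) of each tested chaperone gene (y axis), in a panel for each compartment, with the standard error as bar; blue points are genes called lower, red points genes called higher and grey points genes that did not pass. In the ER panel 7 of 13 points are blue, in the mitochondrial panel 4 of 9 and in the cytosolic panel 11 of 49.

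Summed over its 13 genes, the ER set stood at 2516, 2579 and 2316 CPM in WT 3, WT 8 and WT 19 and at 1603, 1492 and 1503 CPM in KO 3, KO 13 and KO 16. Every KO line lay below every WT line. The cytosolic set stood at 7086, 7828 and 6592 CPM in the WT lines and at 6551, 6957 and 7985 CPM in the KO lines, and these overlapped. The mitochondrial set stood at 1087, 1188 and 1005 CPM and at 911, 919 and 1039 CPM, which overlapped through WT 19 and KO 16. Within a line, where library scaling cancels, the ER sum was 35.5%, 33.0% and 35.1% of the cytosolic sum in the WT lines and 24.5%, 21.4% and 18.8% in the KO lines. The mitochondrial sum was 15.3%, 15.2% and 15.2% of the cytosolic sum in the WT lines and 13.9%, 13.2% and 13.02% in the KO lines. Neither share overlapped between the groups, and KO 3 had the highest value of the KO lines for both.

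**Figure D2:**
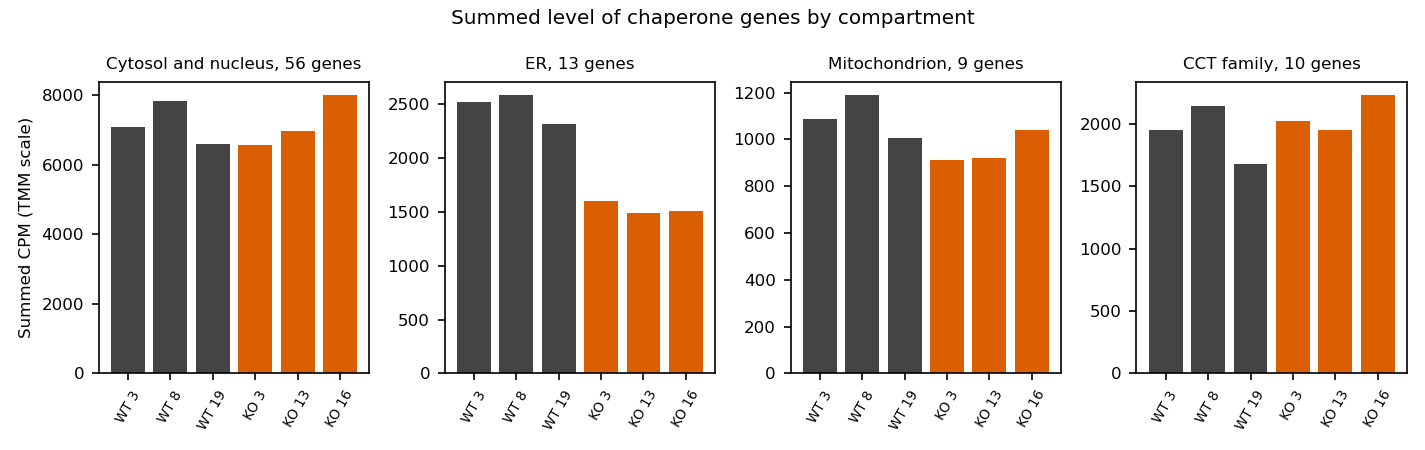
Summed level (y axis, CPM on the TMM scale) of the chaperone genes of each compartment and of the CCT family in each line (x axis; grey WT, orange KO, a bar a line). The ER bars run from 2316 to 2579 in WT and from 1492 to 1603 in KO, while those of the cytosol and of the CCT family overlap.

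In the ER, the main folding chaperones and several of their J-domain partners fell together. Of the 68 members with a promoter in the RefSeq table (assembly GRCm38.p6, 250 bases before to 50 after the start), 3 held the ER stress response element, read as CCAAT, 9 bases of any kind and CCACG on either strand, the arrangement bound by NF-Y and Atf6. These were Hsp90b1, Hspa5 and Dnajc3, a J-domain partner of Hspa5 in the ER lumen. The element was found in 0.119% of all 32851 promoters of that length and in the promoters of 0.137% of genes. The sequences are shown because these 3 genes were all called lower. Capitals mark the element, each line reads along the gene's own strand, and the capitals of the second element of Hsp90b1 read CCAAT to CCACG on the opposite strand.
Hsp90b1, chr10:86705510-86705694, minus strand: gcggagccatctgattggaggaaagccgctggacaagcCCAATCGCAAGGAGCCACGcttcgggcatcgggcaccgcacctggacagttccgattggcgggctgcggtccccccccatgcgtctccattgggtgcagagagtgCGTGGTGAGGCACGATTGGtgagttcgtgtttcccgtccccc
Hspa5, chr2:34772025-34772043, plus strand: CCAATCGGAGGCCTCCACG
Dnajc3, chr14:118937787-118937885, plus strand: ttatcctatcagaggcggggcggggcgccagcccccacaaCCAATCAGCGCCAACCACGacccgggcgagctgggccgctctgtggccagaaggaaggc
With position 0 as the first transcribed base, the element of Hspa5 runs from -65 to -47 and that of Dnajc3 from -105 to -87. GENCODE starts the Hspa5 gene further upstream than the RefSeq start used here, so that all 19 bases of its element lie in an annotated exon there. A match is a description of letters, not of a bound site.

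Hsp90b1 (chromosome 10, 86690209 to 86705509, GRCm38) had 1194, 1198 and 1079 CPM in WT 3, WT 8 and WT 19 and 614, 576 and 569 CPM in KO 3, KO 13 and KO 16. The WT lines lay close to each other, as did the KO lines, and the groups did not overlap. The mean fell from 1157 ± 67.5 to 586 ± 24.5 CPM (SD, n = 3), a log2 fold change of -0.98 (SE 0.11, adjusted p = 1.88e-04, edgeR). Hspa5 (chromosome 2, 34771970 to 34777547), which binds unfolded proteins in the ER lumen and holds the stress sensors inactive, had 601, 649 and 513 CPM in the WT lines and 336, 336 and 371 CPM in the KO lines. All 3 KO values were below the lowest WT value, that of WT 19. The mean fell from 588 ± 68.6 to 348 ± 20.2 CPM (log2 -0.76, SE 0.12, adjusted p = 0.00124). Hspa13, an HSP70 relative in microsomes that lacks the substrate-binding part, had 59.1, 69.3 and 56.7 CPM in the WT lines and 41.5, 25.3 and 25.9 CPM in the KO lines. KO 3 was the highest of the KO lines, and the groups did not overlap (log2 -0.998, SE 0.19, adjusted p = 0.0036).

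Of the 10 ER members with a J domain, 4 fell, 1 rose and 5 did not pass. Dnajb9, a soluble partner of Hspa5 that represses the sensor Ern1, had 16.6, 18.1 and 17.9 CPM in the WT lines and 7.8, 4.31 and 4.08 CPM in the KO lines. It fell 3.27-fold in the fit (log2 -1.71, SE 0.24, adjusted p = 6.56e-04), with KO 3 nearest to the WT lines. Dnajc3 had 98.6, 97.3 and 101 CPM in the WT lines and 75.2, 53 and 54.6 CPM in the KO lines, where KO 3 was again the highest and the groups did not overlap (log2 -0.70, SE 0.14, adjusted p = 0.00482). Dnajb14, an ER membrane protein of protein degradation, fell from 12.3 ± 1.61 to 8.09 ± 1.17 CPM (adjusted p = 0.016), a call lost without WT 19 or without KO 13. Dnajb11, which binds unfolded proteins together with Hspa5, fell from 73.9 ± 5.20 to 59.5 ± 3.93 CPM (adjusted p = 0.0422). Its call was lost without any of the WT lines, without KO 13 and with no filter on low counts. Dnajc10, an ER disulfide reductase, had 152, 155 and 141 CPM in the WT lines and 140.3, 100.2 and 97.6 CPM in the KO lines. It did not pass (log2 -0.41, adjusted p = 0.0533). Without KO 3 its log2 fold change was -0.59 (adjusted p = 0.0002).

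Among the remaining ER members, Dnajc14, a membrane protein of receptor transport, rose from 42.9 ± 2.92 to 55.3 ± 3.76 CPM (log2 0.37, adjusted p = 0.023). Its call was lost without WT 3, WT 8, KO 13 or KO 16, and 1114 of its exon bases are shared with the neighbouring gene Ormdl2. Dnajb12, a close relative of Dnajb14, had a log2 fold change of 0.13 and did not pass. The values were -0.02 for Dnajc1, -0.12 for Dnajc16 and -0.02 for Dnajc18, none of which passed.

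A list of 26 further genes of ER folding and the unfolded protein response gave 15 lower, none higher and 11 not passed, with a median of -0.43. The 15 are 57.7% of the list, where 20.4% of all genes tested were called lower. Pdia3, a disulfide isomerase that acts on glycoproteins, fell from 443 ± 21.9 to 189 ± 11.5 CPM (log2 -1.23, SE 0.10, adjusted p = 5.7e-05). Canx, the lectin chaperone calnexin, fell from 707 ± 11.1 to 322 ± 50.9 CPM (log2 -1.14, SE 0.13, adjusted p = 2.27e-04). The disulfide isomerase gene Pdia6 (log2 -0.76) and the stress sensor gene Atf6 (log2 -0.74) fell as well. Xbp1 and Herpud1, targets of the same response named here after their values were seen, had log2 fold changes of 0.04 (adjusted p = 0.795) and 0.26 (adjusted p = 0.158). Of all 17 tested genes with the ER stress response element in a RefSeq promoter, 6 were lower (35.3%), namely the 3 chaperones above with Calr, Canx and Pdia6, and 4 were higher (23.5%). The 3 chaperones were shown because they were called lower, so the 35.3% is not separate from the members. Outside the members, only Calr, Canx and Pdia6 were lower. Among all 9840 tested genes with a promoter in the table, 20.3% were lower and 22.5% higher.

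**Figure D3:**
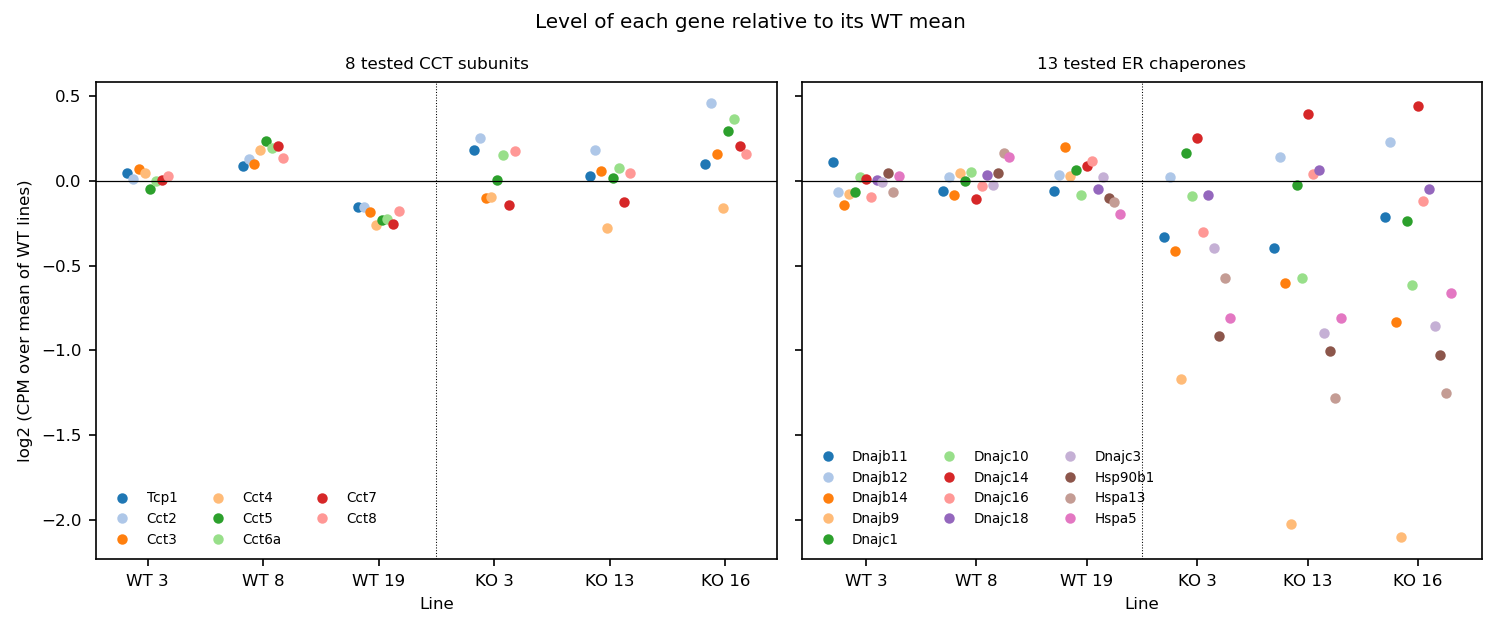
Log2 of the CPM of each gene over its mean in the WT lines (y axis) in each line (x axis), for the 8 tested CCT subunits (left) and all 13 ER chaperones (right). Of the 13 ER chaperones, 8 had all KO points below all WT points, as had 25.7% of all genes tested. Of these 8, 7 were called lower (Dnajc10 was not). Dnajc14 was called higher, and none of the CCT subunits was called.

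Of the HSP90 genes of the cytosol, 1 fell and 1 did not pass. Hsp90aa1 (chromosome 12, 110690605 to 110702728), the stress-inducible form, had 464, 633 and 453 CPM in WT 3, WT 8 and WT 19 and 251, 253 and 293 CPM in KO 3, KO 13 and KO 16. The KO lines lay close together, and their highest value was below the lowest WT value (log2 -0.96, SE 0.15, adjusted p = 0.00124). Hsp90ab1 (chromosome 17, 45567775 to 45573271), the constitutive form, had 1406, 1705 and 1382 CPM in the WT lines and 1404, 1751 and 2188 CPM in the KO lines. The groups overlapped, and KO 16 was the highest of the 6. The change from 1497 ± 179.9 to 1781 ± 393 CPM did not pass (log2 0.25, SE 0.18, adjusted p = 0.289). Without KO 3 it was called higher (log2 0.40, adjusted p = 0.0288).

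Set against each other within a line as ratios of CPM (not per length), so that library scaling cancels, Hsp90aa1 was 0.330, 0.371 and 0.328 of Hsp90ab1 in the WT lines and 0.179, 0.144 and 0.134 in the KO lines. Hsp90b1 was 0.849, 0.703 and 0.781 of Hsp90ab1 in the WT lines and 0.438, 0.329 and 0.260 in the KO lines. Hspa5 was 0.838, 0.853 and 0.881 of Hspa8 in the WT lines and 0.530, 0.452 and 0.396 in the KO lines. These 3 ratios, and 3 more given below for the HSP110 and HSP60 genes, did not overlap between the groups. Each gave the smallest two-sided p that an exact permutation test of 3 against 3 lines allows, 0.1 (adjusted over the 6 ratios, 0.1), so that none could pass 0.05.

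**Figure D4:**
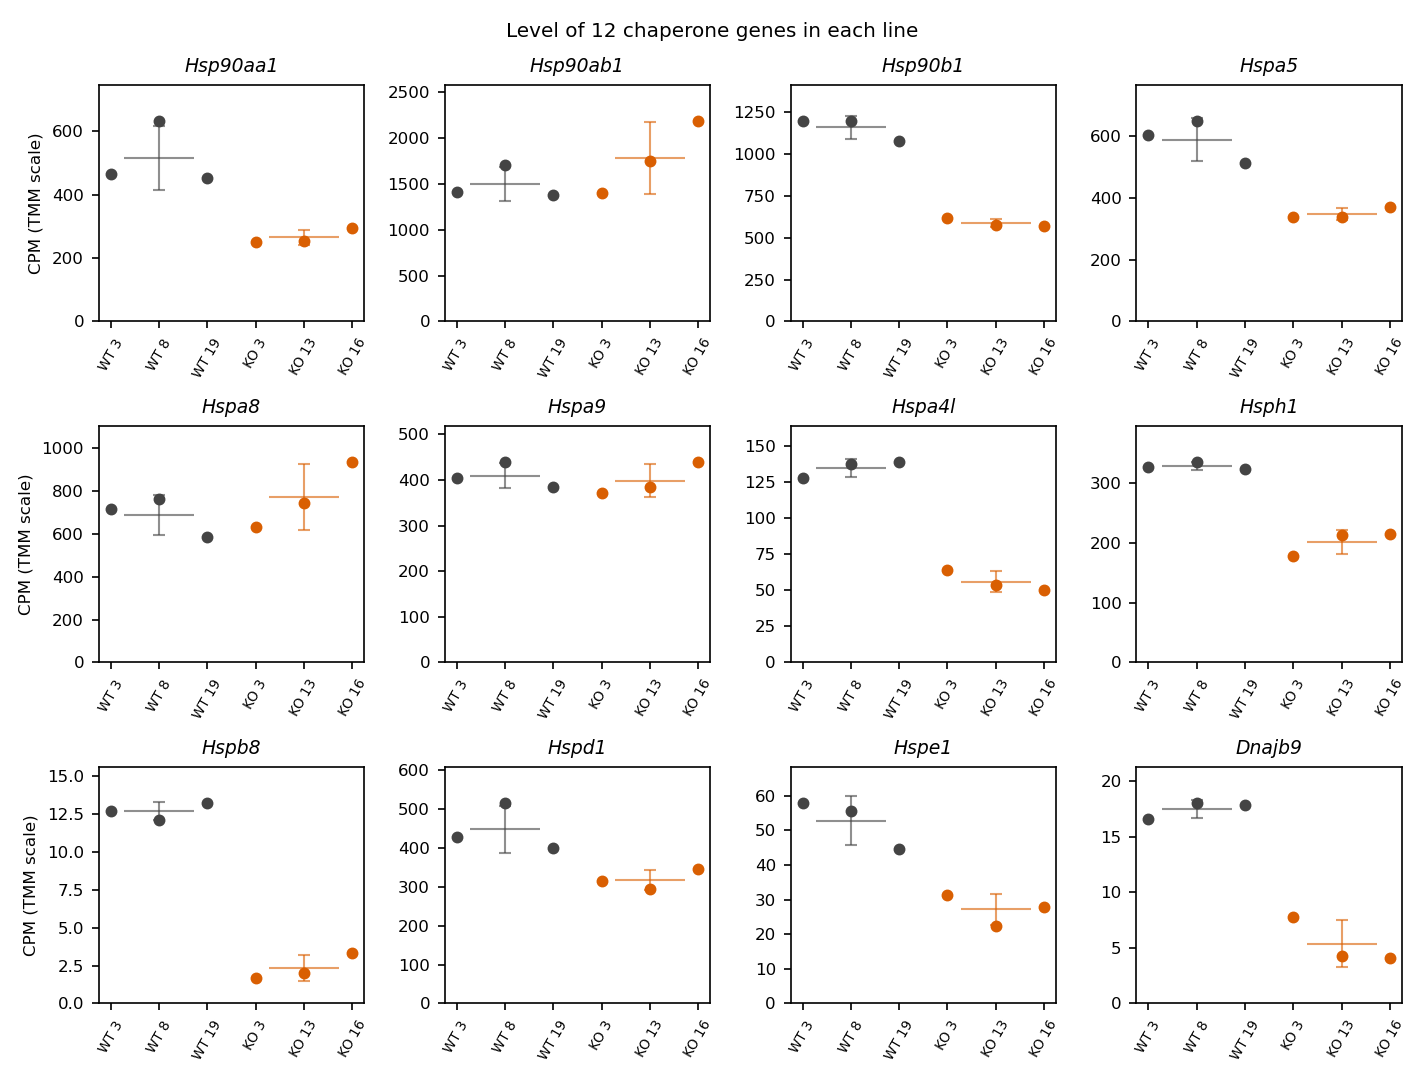
CPM on the TMM scale (y axis, from 0) of 12 chaperone genes in each line (x axis; grey WT, orange KO), with a point for each line and the mean and SD of each group as a bar. Hsp90aa1, Hsp90b1, Hspa5, Hspa4l, Hsph1, Hspb8, Hspd1, Hspe1 and Dnajb9 have all KO points below all WT points, while Hsp90ab1, Hspa8 and Hspa9 overlap.

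Of the 11 HSP70 genes, 5 fell (45.5%), 2 rose (18.2%) and 4 did not pass, and the main constitutive cytosolic form was among the last. The shares over all genes tested were 20.4% lower and 21.8% higher. Hspa8 had 717, 760.0 and 583 CPM in the WT lines and 633, 743 and 936 CPM in the KO lines. The groups overlapped, and WT 19 was the lowest and KO 16 the highest of the 6 (log2 0.17, SE 0.16, adjusted p = 0.44). The stress-inducible pair Hspa1a and Hspa1b, near copies between which reads may be split, was low in all 6 libraries. Hspa1b had 78, 66 and 49 counts in the WT lines and 25, 26 and 18 in the KO lines, and fell 2.77-fold in the fit (log2 -1.47, SE 0.25, adjusted p = 0.00201). Hspa1a had 43, 30 and 11 counts in the WT lines and 8, 15 and 15 in the KO lines, where WT 19 lay inside the KO range (log2 -1.11, SE 0.40, adjusted p = 0.0502).

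Of Hspa2 and Hspa1l, relatives best known from male germ cells, 1 was called. Hspa2 fell from 9.24 ± 0.191 to 5.8 ± 1.36 CPM (log2 -0.67, adjusted p = 0.0173), a call lost without WT 3, WT 8 or KO 13. Hspa1l stood at 17.3 ± 1.65 and 21.3 ± 2.54 CPM and did not pass (adjusted p = 0.102), and 1778 of its exon bases are shared with Gm10501. Hspa14, which works with the J-domain protein Dnajc2 at the ribosome, rose from 49.4 ± 3.52 to 66.9 ± 6.61 CPM (log2 0.44, SE 0.11, adjusted p = 0.0145). Its lines did not overlap, and its call was lost without WT 8 or WT 19. The distant relatives Hspa12a and Hspa12b moved in opposite directions. Hspa12a fell from 5.62 ± 0.837 to 2.95 ± 1.24 CPM (adjusted p = 0.0238), and Hspa12b rose from 0.816 ± 0.196 to 1.52 ± 0.317 CPM (adjusted p = 0.0359). Hspa12b was low throughout, with 17, 20 and 15 counts in the WT lines and 34, 28 and 36 in the KO lines. Both calls were lost when any of 4 of the 6 lines was left out, namely WT 3, WT 8, KO 13 or KO 16 for Hspa12a and WT 3, WT 19, KO 3 or KO 16 for Hspa12b.

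Of the 3 HSP110 genes, whose proteins exchange the nucleotide of HSP70, 2 fell. Hspa4l (chromosome 3, 40744495 to 40796103) had 128, 138 and 139 CPM in the WT lines and 64, 54 and 50 CPM in the KO lines. The groups were far apart relative to their spread, and the fitted fall was 2.41-fold (log2 -1.27, SE 0.12, adjusted p = 1.01e-04). Hsph1 (chromosome 5, 149614287 to 149636376) had 326, 336 and 324 CPM in the WT lines and 178, 212 and 214 CPM in the KO lines, with no overlap (log2 -0.70, SE 0.11, adjusted p = 0.00113). Hspa4 had the highest level of the 3 per kb of exon, 80.2 ± 5.43 CPM per kb in the WT lines and 69.5 ± 5.49 in the KO lines. It had 432, 477 and 420.4 CPM in the WT lines and 396, 349.6 and 407 CPM in the KO lines. It did not pass (log2 -0.21, SE 0.11, adjusted p = 0.156), though its groups did not overlap. Hspa4l was 0.295, 0.289 and 0.331 of Hspa4 in the WT lines and 0.162, 0.155 and 0.123 in the KO lines, and Hsph1 was 0.756, 0.704 and 0.770 of it against 0.451, 0.607 and 0.527. Hspbp1, another exchange factor of HSP70, had a log2 fold change of 0.12 (adjusted p = 0.544).

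In the mitochondrion, the chaperonin pair fell and the HSP70 did not pass. Hspd1 (HSP60, chromosome 1, 55077835 to 55088243, minus strand) and Hspe1 (its lid HSP10, 55088132 to 55091307, plus strand) are neighbours that start back to back and share 112 exon bases, and whether the counting used strand is not given in the sources used here. Hspd1 had 426, 515 and 398 CPM in the WT lines and 313, 294 and 345 CPM in the KO lines (log2 -0.49, SE 0.13, adjusted p = 0.0135), and its call was lost without WT 8 or without KO 13. Hspe1 had 58, 55.4 and 44.7 CPM in the WT lines and 31.3, 22.3 and 27.9 CPM in the KO lines (log2 -0.96, SE 0.16, adjusted p = 0.00144). Neither gene overlapped between the groups. Hspe1 was 0.136, 0.108 and 0.112 of Hspd1 in the WT lines and 0.1001, 0.0757 and 0.0807 in the KO lines. Hspa9, the mitochondrial HSP70 that pulls in imported proteins, had 404, 439.9 and 385 CPM in the WT lines and 371, 385 and 440.4 CPM in the KO lines. Its groups overlapped throughout (log2 -0.04, SE 0.11, adjusted p = 0.807).

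The bases just before the RefSeq start of Hspe1 hold the heat shock element, the site bound by heat shock factors, which was searched on either strand as 3 units (GAA, TTC and GAA) with 2 bases of any kind between neighbours. Of the 68 members with a promoter, 4 held it (5.88%), against 0.603% of all promoters and 0.662% of genes. The 15 members without a promoter there, among them Hsp90aa1, Hsp90ab1, Hspa8, Hspa13 and Hsf1, could not be searched for any element. The 4 with the element were Hspd1, Hspe1, Hsph1 and Dnajb6. They are shown to set the 3 that fell beside Dnajb6, which did not pass. The sequences are from the RefSeq promoters (GRCm38.p6), and every base shown belongs to the element and is in capitals. The 18 bases of Hspe1 hold 2 overlapping elements, and those of Hspd1 are the same bases read on the other strand.
Hspe1, chr1:55088059-55088076, plus strand: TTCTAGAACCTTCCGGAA
Hspd1, chr1:55088059-55088076, minus strand: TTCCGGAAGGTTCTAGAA
Hsph1, chr5:149636288-149636300, minus strand: TTCTGGAAAGTTC
Dnajb6, chr5:29735852-29735864, plus strand: GAATCTTCCGGAA
The shared run lies at -89 to -72 from the start of Hspe1 and at -144 to -127 from 1 of the 2 RefSeq starts of Hspd1. The promoter of the other start of Hspd1, at the gene end given above, does not hold it, since the run lies past that start, inside the gene. In GENCODE all bases printed for these 4 genes lie in an annotated exon. In Hsph1 the element lies 15 to 27 or 36 to 48 bases past the start, depending on which of its annotated starts is used, and in Dnajb6 at -46 to -34 or -127 to -115. Dnajb6, a J-domain protein that holds back aggregation, had 18.7, 19.7 and 16.5 CPM in the WT lines and 21.2, 15.8 and 15.3 CPM in the KO lines, which overlapped (log2 -0.07, adjusted p = 0.734). Of all 60 tested genes with this element, 14 were lower (23.3%) and 15 higher (25.0%). The shorter form with 2 units, GAANNTTC, which the longer form contains, occurred in 15 of the 68 members (22.1%). It occurred in 7.86% of all promoters and in the promoters of 9.04% of genes. Of the 13 tested members with it, 7 fell and none rose, and of the 49 matched and tested members without it, 14 fell and 5 rose. The 13 are not all separate sites. Hspd1 and Hspe1 share the same bases, and Hspa1a and Hspa1b both have the form at -104 in nearly the same sequence. Of all 696 tested genes with the 2-unit form, 24.3% were lower and 20.4% higher. These shares were 20.3% and 22.5% among all tested genes with a promoter. The shorter motifs CCAAT and GGGCGG, searched in the same way, were in 29 (42.6%) and 51 (75.0%) of the 68 members. They were in 37.4% and 35.7% of all promoters and in the promoters of 41.1% and 38.2% of genes.

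The mitochondrial J-domain proteins were divided. Dnajc28 had 108, 67 and 56 counts in the WT lines and 21, 25 and 29 in the KO lines. It stood at 3.95, 3.39 and 3.04 CPM against 1.12, 1.06 and 1.24 CPM. It fell 3.03-fold in the fit, with groups far apart relative to their spread (log2 -1.60, SE 0.22, adjusted p = 5.98e-04). Dnajc15, a partner of the import motor, fell from 9.36 ± 1.73 to 5.73 ± 0.75 CPM (adjusted p = 0.0143). Its paralog Dnajc19, a subunit of that motor, stood at 7.01 ± 1.46 and 9.49 ± 0.517 CPM and did not pass (log2 0.43, adjusted p = 0.0754). Dnajc11, also placed in the mitochondrion, rose from 111 ± 9.55 to 146 ± 13.9 CPM (log2 0.40, adjusted p = 0.0221). The call of Dnajc15 was lost without WT 3, WT 8 or KO 13, and that of Dnajc11 without any line other than KO 3. Dnaja3, a main partner of Hspa9, had a log2 fold change of -0.11 and Dnajc30 of 0.16, and neither passed.

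Of 16 other genes of mitochondrial import and folding, 6 were lower (37.5%) and 2 higher (12.5%), with a median of 0.00. The shares over all genes tested were 20.4% and 21.8%. The disaggregase gene Clpb fell from 66 ± 0.793 to 44.8 ± 4.69 CPM (log2 -0.56, adjusted p = 0.0037), and Hscb, a J-domain protein of iron-sulfur cluster transfer outside the symbol rule, fell from 6.64 ± 0.533 to 3.54 ± 0.501 CPM (log2 -0.91, adjusted p = 0.00316). Tomm34, which links cytosolic chaperones to import, rose from 43.9 ± 3.51 to 68.8 ± 7.28 CPM (log2 0.65, adjusted p = 0.00274). The protease gene Afg3l2 fell from 118 ± 8.91 to 89.1 ± 7.06 CPM (log2 -0.40, adjusted p = 0.0168).

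The small HSPs, which hold unfolded proteins without ATP, were low in these nuclei. Hspb8 (chromosome 5, 116408491 to 116422864), which acts with Bag3 in selective autophagy, had the largest fold change of the 75 members. It had 347, 238 and 244 counts in the WT lines and 32, 47 and 77 in the KO lines, or 12.7, 12.1 and 13.2 CPM against 1.71, 1.99 and 3.3 CPM. The WT lines were nearly equal and the highest KO line, KO 16, was far below them. The mean went from 12.7 ± 0.587 to 2.33 ± 0.852 CPM, a fitted fall of 5.37-fold (log2 -2.43, SE 0.23, adjusted p = 1.07e-04). Bag3 itself, from the list of cofactors and named here as the partner of Hspb8, stood at 38.5 ± 5.62 and 37 ± 9.57 CPM (log2 -0.06, adjusted p = 0.836). Hspb1 had 19, 24 and 13 counts in the WT lines and 8, 6 and 5 in the KO lines. It fell (log2 -1.55, SE 0.41, adjusted p = 0.0148), and the call was lost without WT 8, KO 13 or KO 16. Hspb6 and Hspb9 did not pass, with log2 fold changes of 0.14 and -0.04. Hspb11, a subunit of ciliary transport that carries the family's name but is placed outside it here, fell from 8.82 ± 1.09 to 4.25 ± 1.23 CPM (log2 -1.06, adjusted p = 0.00516). Hspbap1, a binding partner of Hspb1, had a log2 fold change of 0.09 and did not pass.

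The chaperonin CCT, a ring of different subunits that folds actin and tubulin, had no tested subunit that was called. Over the 8 tested subunits, log2 fold changes ran from -0.18 to 0.31 with a median of 0.11, standard errors from 0.11 to 0.15 and adjusted p from 0.0692 to 0.96. At an unadjusted p under 0.05, where 50.9% of all genes passed, 1 subunit passed, and DESeq2 and limma-voom with and without sample weights called 0. Cct2 was that subunit, with 316, 343 and 282 CPM in the WT lines and 375, 356 and 431 CPM in the KO lines. All its KO values lay above its WT values (log2 0.31, SE 0.12, adjusted p = 0.0692), and without KO 3 it was called higher (log2 0.33, adjusted p = 0.0264). Tcp1, the first subunit, had 265, 273 and 231 CPM in the WT lines and 291, 261 and 274 CPM in the KO lines, which overlapped (log2 0.11, adjusted p = 0.456).

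The other subunits overlapped between the groups in the same way. Their log2 fold changes were 0.05 for Cct3, -0.18 for Cct4, 0.11 for Cct5, 0.21 for Cct6a, -0.01 for Cct7 and 0.13 for Cct8. Within the WT group the subunits kept the same order of lines: WT 8 was the highest and WT 19 the lowest for 8 of 8 subunits. Among the KO lines, KO 16 was the highest for 5 of 8. The family summed to 1954, 2141 and 1676 CPM in the WT lines and to 2021, 1948 and 2227 CPM in the KO lines. A list of 10 abundant cytoplasmic messages, which marks carry-over of cytoplasm, had 2 genes higher in the KO lines, Actb and Eef2. It summed to 5419, 6147 and 4729 CPM in the WT lines and 5997, 6556 and 8066 CPM in the KO lines, where KO 16 was again the highest. The CCT sum was 36.1%, 34.8% and 35.4% of that sum in the WT lines and 33.7%, 29.7% and 27.6% in the KO lines. What part carry-over has in the levels of CCT, Hsp90ab1, Hspa8, the ER set or the other members was not tested. Of 8 genes for prefoldin, which hands proteins to CCT, and for other CCT cofactors, edgeR called 0, none had an unadjusted p under 0.05, and DESeq2 and limma-voom called 0. With sample weights limma-voom called 4, and without KO 3 edgeR called 3.

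Of the 40 tested members with a J domain, in all compartments, 10 fell (25.0%), 5 rose (12.5%) and 25 did not pass, with a median of -0.07. The shares over all genes tested were 20.4% lower and 21.8% higher. The 22 in the cytosol and nucleus were divided evenly, with 3 lower and 3 higher (13.6% each). Dnajb4, a partner of cytosolic HSP70, had 40.7, 41.5 and 33.4 CPM in the WT lines and 27.3, 20.8 and 22 CPM in the KO lines, and fell without overlap (log2 -0.72, SE 0.14, adjusted p = 0.00379). Its relative Dnajb1, the main partner of Hspa8 in disaggregation, had 29.4, 22.8 and 28.9 CPM in the WT lines and 22.1, 23.2 and 26.6 CPM in the KO lines. Those groups overlapped and did not pass (log2 -0.17, adjusted p = 0.34). Dnaja1, a farnesylated partner of Hspa8, fell from 126 ± 11.6 to 97.8 ± 14.1 CPM (log2 -0.37, adjusted p = 0.0473), though WT 19 and KO 3 met at 114 CPM, and its call was lost when WT 3, WT 8, KO 13 or KO 16 was left out. Dnajc12, a cofactor of aromatic amino acid hydroxylases, fell from 3.92 ± 0.569 to 2.49 ± 0.457 CPM (adjusted p = 0.0351), a call lost without WT 3, WT 8 or KO 13.

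Among those that rose, Dnajc5, the cysteine string protein of synaptic vesicles, had 131, 129 and 143 CPM in the WT lines and 168, 190.3 and 185 CPM in the KO lines. The groups did not overlap (log2 0.43, SE 0.10, adjusted p = 0.00891), and the call was lost without WT 3. Dnajc17, a nuclear protein, had 8.67, 9.17 and 9.22 CPM in the WT lines and 11.6, 13.7 and 14.7 CPM in the KO lines (log2 0.56, SE 0.14, adjusted p = 0.0108), and was also not called without WT 3. Dnajc9, a histone chaperone, rose from 48.4 ± 3.93 to 60.9 ± 6.20 CPM (log2 0.33, adjusted p = 0.0491), a call lost in 13 of 18 alternative analyses. Dnajc7, the J-domain gene with the highest level per kb, which binds both HSP70 and HSP90, stood at 341 ± 15.7 and 305 ± 23.9 CPM and did not pass (log2 -0.16, adjusted p = 0.255). Dnajc25, placed in no single compartment, fell from 10.3 ± 1.23 to 7.3 ± 0.81 CPM (adjusted p = 0.0303), a call lost without WT 8, WT 19, KO 13 or KO 16.

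Hsf1, which encodes the factor that induces the cytosolic set, had 115, 97.3 and 123 CPM in the WT lines and 92.5, 121 and 119.8 CPM in the KO lines. The groups overlapped almost fully, at 112 ± 13.4 and 111 ± 16.3 CPM (log2 -0.01, SE 0.14, adjusted p = 0.961). Of 9 other heat shock factors and targets tested, 3 fell (33.3%, against 20.4% of all genes tested) and none rose. The collagen chaperone gene Serpinh1 fell from 315 ± 18.1 to 219 ± 29.8 CPM (log2 -0.53, adjusted p = 0.00879). The factor gene Hsf4 fell from 1.95 ± 0.27 to 1.15 ± 0.291 CPM (adjusted p = 0.0475), and DESeq2 called 2 of the 9.

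Of 23 cofactors of HSP90 and HSP70, 1 fell and 3 rose, with a median of 0.00. Chordc1, an HSP90 partner, fell from 184 ± 16.1 to 118 ± 28.7 CPM (log2 -0.65, adjusted p = 0.0129). Aarsd1 (log2 0.50, adjusted p = 0.00512), Bag6 (log2 0.52, adjusted p = 0.0101) and Bag5 (log2 0.43, adjusted p = 0.0182) rose; Bag6 and Bag5 belong to the BAG family of chaperone cofactors. Without KO 3, 9 of the 23 were called. That fit called 3666 of its 14182 tested genes higher, where 3040 of 13925 were called higher with all lines.

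WT 19 was the lowest WT line for 17 of the 24 members that fell (70.8%), against 31.1% of all genes called lower. It was also the lowest for 44 of all 75 tested members (58.7%), against 36.0% of all genes tested. KO 3 was the highest KO line for 14 of them (58.3%), against 43.7% of all genes called lower, and KO 13 for 0. Without WT 19 and KO 3 together, 28 members were called lower and 9 higher.

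The 8 members that did not pass the filter had few counts in any library. Over all 6 libraries Cct6b, a testis form of a CCT subunit, had 41 counts, Cct8l1 35, Dnajb13 15, Dnajc22 14, Hspb3 3, Hspb2 2, Hspb7 1 and Dnajb8 0. For Dnajb8, a count of 0 allows up to 3 counts in a library, or 0.110 to 0.163 CPM, counting error only.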

How the data were processed

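Nuclear RNA was sequenced from 6 cultures, 3 labelled WT and 3 labelled KO. What the authors deposited for each library is a table of raw read counts by gene symbol, not normalized, with 18702738 to 26789522 counts per library. The submitters' processing notes name the genome build mm10 and the programs STAR, DESeq2, cutadapt 1.14 and HTSeq 0.7.2. Annotation, strand setting and each program's role were not given in the sources used here. Reads of overlapping genes cannot be told apart, and 32 of the 83 members share exon bases with another annotated gene, 5 of them at least 20% of their length.

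The counts of all 23337 rows were read into edgeR 4.0.16 (R 4.3.3). Genes passing filterByExpr were scaled by TMM and tested by a robust quasi-likelihood fit of KO against WT, two-sided, with Benjamini-Hochberg adjustment over 13925 genes and a threshold of 0.05. The standard error (SE) comes from the F statistic, and CPM are on the TMM scale. Per-kb levels use the exon union of each gene in GENCODE mouse release 21, and promoters come from RefSeq (GRCm38.p6), which held 68 of the 83 members. The test was tried on simulated data. Alternatives used other size factors, filters, tests (DESeq2 1.42.0, limma 3.58.1), a Y-linked covariate and left-out lines.

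The members, compartments (from general knowledge) and lists were chosen with earlier results of these data known. Named were any member, and of each further list up to 4 genes with the smallest p, with exceptions stated; full statistics went to up to 6 genes of a family.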

Additional observations from a re-analysis of the deposited data

How the results depend on the processing

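Of the 31 called members, 14 kept their call in all 18 alternatives (Hsp90aa1, Hsp90b1, Hspa5, Hspa13, Hspa1b, Hspa4l, Hsph1, Hspb8, Hspb11, Hspe1, Dnajb4, Dnajb9, Dnajc3 and Dnajc28), and 0 reversed. At a threshold of 0.01, 1797 genes were lower and 1788 higher, with 14 members lower and 1 higher; 6 and 1 of these were cytosolic, 2 and 0 mitochondrial, and 0 ER members were higher. With sample weights in limma-voom, and with the Y-linked covariate, 11 members were higher, 8 of them cytosolic. Both settings also raised the counts called lower and higher over all genes tested. Restricted to members named HSP or CCT, 2 cytosolic members were higher, 3 ER and 2 mitochondrial members lower, and 0 ER or mitochondrial members higher.

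Leaving out a line in turn gave 2120 to 3944 genes lower and 1994 to 3666 higher, 14 to 25 members lower and 2 to 11 higher. By compartment this was 6 to 12 cytosolic members lower and 1 to 8 higher, 5 to 8 ER members lower and 0 to 1 higher, 2 to 4 mitochondrial members lower and 0 to 1 higher, and 10 to 17 genes of the ER folding list lower. Fmr1 ranged from -0.58 (without KO 3) to 0.14 (without KO 16), and without KO 13 it was 0.04. Without WT 19 and KO 3 together it was -0.53 (adjusted p = 0.00204, edgeR).

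Genes near 0, none of them called, changed sign when a line was left out: log2 fold changes ran from -0.0404 to 0.12 for Cct3, -0.12 to 0.10 for Cct7, -0.17 to 0.0439 for Dnaja4, -0.23 to 0.14 for Dnajb3, -0.23 to 0.0209 for Dnajb6, -0.12 to 0.0838 for Dnajc1, -0.13 to 0.0164 for Dnajc13, -0.0606 to 0.0145 for Dnajc18, -0.0505 to 0.0124 for Dnajc21, -0.12 to 0.33 for Dnajc30, -0.32 to 0.27 for Dnajc6, -0.10 to 0.11 for Hsf1, -0.11 to 0.0142 for Hspa9, -0.39 to 0.20 for Hspb9 and -0.0326 to 0.23 for Hspbp1. Without WT 19 and KO 3 together, values were 0.0439 for Dnaja4, 0.0406 for Dnajb2, 0.0264 for Dnajc16, 0.18 for Hsf1 and -0.0027 for Tcp1. With sample weights they were 0.0198 for Dnajc18, -0.0716 for Dnajc30, 0.0747 for Hsf1 and 0.15 for Hspb9, and with at least 1 CPM in 3 libraries 0.0016 for Cct7 and 0.0025 for Hsf1. The cause was not tested.

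No paired analysis was possible because the WT and KO lines share only the number 3. Hspa1a, Hspb1 and Hspa12b had counts under 50 in all libraries, and Hspa1b, Hspb8, Dnajc12 and Dnajc28 in some, so their values carry a larger counting error. The same holds for some further members that were not called. The scaling alternatives moved the median of all genes by under 0.1.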
